A study of Mus musculus with 6 samples.

Results

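The proteasome is the protease complex that degrades proteins tagged with ubiquitin. Its core particle is a barrel of alpha and beta rings, in which 3 beta subunits cut the substrate, and its regulatory particle recognises the ubiquitin tag, unfolds the substrate with a ring of ATPases and feeds it into the barrel. Activators of another kind can cap the barrel in place of the regulatory particle, and interferon exchanges the 3 constitutive catalytic subunits for inducible ones that favour peptides for antigen presentation. In macrophages this machinery clears proteins and supplies those peptides.

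The genes described here were the 42 of 22027 in the deposited table whose symbol begins with Psma, Psmb, Psmc, Psmd or Psme followed by a number, without Psmb8, Psmb9 and Psmb10, the inducible catalytic subunits. The rule used names only and no measured value, but it was set with earlier results of these data known. They were measured by RNA sequencing in 6 libraries of RAW 264.7, a mouse macrophage line, wild type per the labels, that had received, in each well, 10 pmol of siRNA by lipofection and was harvested 48 h later. The siCTL group (n = 3) received a non-targeting siRNA and the siTET3 group (n = 3) a single siRNA against Tet3, which encodes an enzyme that oxidises methylated cytosine. The groups rest on the sample titles, since the treatment field names siTET3 for every sample, and all libraries come from 1 cell line. The labels do not say whether replicates are separate cultures, so a p-value here weighs a difference against a spread between libraries that may be technical only.

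All values are the authors' normalised read counts, that is, gene counts divided by 1 size factor per library, from libraries of 29587171 to 61709131 reads. The target did not separate the groups. Tet3 had 2171, 1911 and 2027 normalised reads in siCTL libraries 1 to 3 and 1939, 1980.4 and 1950.4 in those labelled siTET3, a log2 change of -0.056 (limma adjusted p = 0.699), and the sign turned to 0.029 with scaling to library size alone. The treated libraries are therefore called the libraries labelled siTET3. Of the 8 macrophage markers, all were detected in every library, and the T cell, B cell and epithelial markers summed to at most 17.3 normalised reads. A second entry named Itgam was at 0 in siCTL replicate 2 and at 94.0 to 646 normalised reads elsewhere. Of the 4 fibroblast markers, Col1a2 reached 286 and Pdgfra 109 normalised reads in siCTL replicate 2, against at most 3.27 and 5.79 in the other libraries, while Col1a1 was at 0 throughout and Dcn was at 0 in siCTL replicate 2. That library stood apart in the proteasome genes too, and the part of these transcripts in that was not tested, so results are given with and without it.

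By role, the 42 genes held 7 alpha ring subunits (Psma1 to Psma7), 4 non-catalytic beta subunits (Psmb1 to Psmb4) and the 3 constitutive catalytic subunits (Psmb5, Psmb6 and Psmb7), which make up the core particle. The regulatory particle was represented by 6 ATPases (Psmc1 to Psmc6), 3 scaffold and ubiquitin receptor subunits of the base (Psmd1, Psmd2 and Psmd4) and 8 lid subunits. The symbols also took in members that are not constitutive subunits in the strict sense. Psmd5, Psmd9 and Psmd10 are chaperones that help to assemble the base, Psme1 to Psme4 are activators that bind the core, and Psma8 and Psmb11 are core subunits known from testis and thymus, respectively. Psmc3ip, a partner of meiotic recombination proteins, and Psme2b, whose transcript shared 69.3% of its 50-base windows with other genes, matched by name. Psmb11 was at 0 in every library, and the other 41 passed the filter of a mean of 10 normalised reads over all libraries. Psma8 was detected at 570.0 to 798 normalised reads.

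The stretches upstream of the start site were searched because genes of this complex are known to be induced together by NRF1, a factor made by Nfe2l1 that binds antioxidant response elements. The letters TGACNNNGC, on either strand, were found within 250 bases upstream of the RefSeq start of 5 of the 35 members present in the RefSeq promoter table (build GRCm38.p6), or 14.3%, against 13.8% of 9043 tested genes in that table. The matches are shown with up to 20 bases on each side, 5′ to 3′ on the strand of the gene. Matched letters are in capitals. Among these genes, Psmb5, Psmb6 and Psmd9 were lower in every library labelled siTET3, as were 15.5% of all tested genes. Psmc6 and Psmd12 overlapped between the groups, with log2 changes of 0.29 and 0.029. Psmc5, Psmd8 and Psmd13, lower in every library labelled siTET3 too, held no match. No match was found for Psmd3, lower in every one as well, which may be absent from the promoter table. Whether the motif goes with the change was not tested. In Psmc6 and Psmd12 the capitals read the motif on the opposite strand.
Psmb5 chr14:54618014-54618062 (minus strand): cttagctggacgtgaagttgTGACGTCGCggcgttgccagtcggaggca
Psmb6 chr11:70525328-70525356 (plus strand): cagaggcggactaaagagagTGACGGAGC
Psmc6 chr14:45329577-45329625 (plus strand): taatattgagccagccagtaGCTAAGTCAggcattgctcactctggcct
Psmd12 chr11:107479278-107479309 (plus strand): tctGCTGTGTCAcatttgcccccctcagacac
Psmd9 chr5:123228139-123228187 (plus strand): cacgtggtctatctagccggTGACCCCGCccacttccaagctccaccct
The match lies 9 bases before the start of Psmb6, 31 before that of Psmd9 and 47 before that of Psmb5, counted from the first base of the match, and 227 and 247 before the starts of Psmc6 and Psmd12. A further 3 motifs were searched in the same windows on both strands. CCAAT, the box bound by NF-Y, was in 14 members (40.0% against 41.0% of tested genes), and the GC box GGGCGG was in 20 (57.1% against 64.4%). CGGAAG, the core bound by ETS factors, was in 19 members, or 54.3% against 30.2% of tested genes. These are counts of letters with no test, and genes with several starts were counted once if any start held the motif. The 35 members include Psmb11, at 0 in every library and so not among the tested genes, which held CCAAT and CGGAAG.

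No proteasome gene passed the test between the groups. Limma called 0 of 41 tested members at an adjusted p of 0.05, with 0.354% of all 11591 genes called. EdgeR on the recovered reads also called 0 (background 0.345%), as did DESeq2 on the recovered reads (2.98%) and the authors' deposited table (2.94%). At an unadjusted p under 0.05, limma had 2 members, Psmb6 and Psmd8, both lower in the libraries labelled siTET3, where 6.95% of all genes were lower at that level. The members' median log2 change was -0.055, with 16 positive and 25 negative, beside a median of -0.0049 over all genes tested. Scaled to library size alone, the medians were 0.030 and 0.080, with 24 members positive. In bulk RNA, fewer cells with a transcript and less of it per cell cannot be told apart.

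The groups did not overlap for 9 members. Psma3 and Psme3 were higher in every library labelled siTET3 than in any siCTL library, 4.88% of the members against 16.1% of all genes. Psmb5, Psmb6, Psmc5, Psmd3, Psmd8, Psmd9 and Psmd13 were lower in every one, 17.1% against 15.5% of all genes. Without siCTL replicate 2, 4 members were higher without overlap (21.2% of all genes) and 8 lower (20.6%), the same 7 and Psma7. These shares lie near or below those of all genes.

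**Figure D1:**
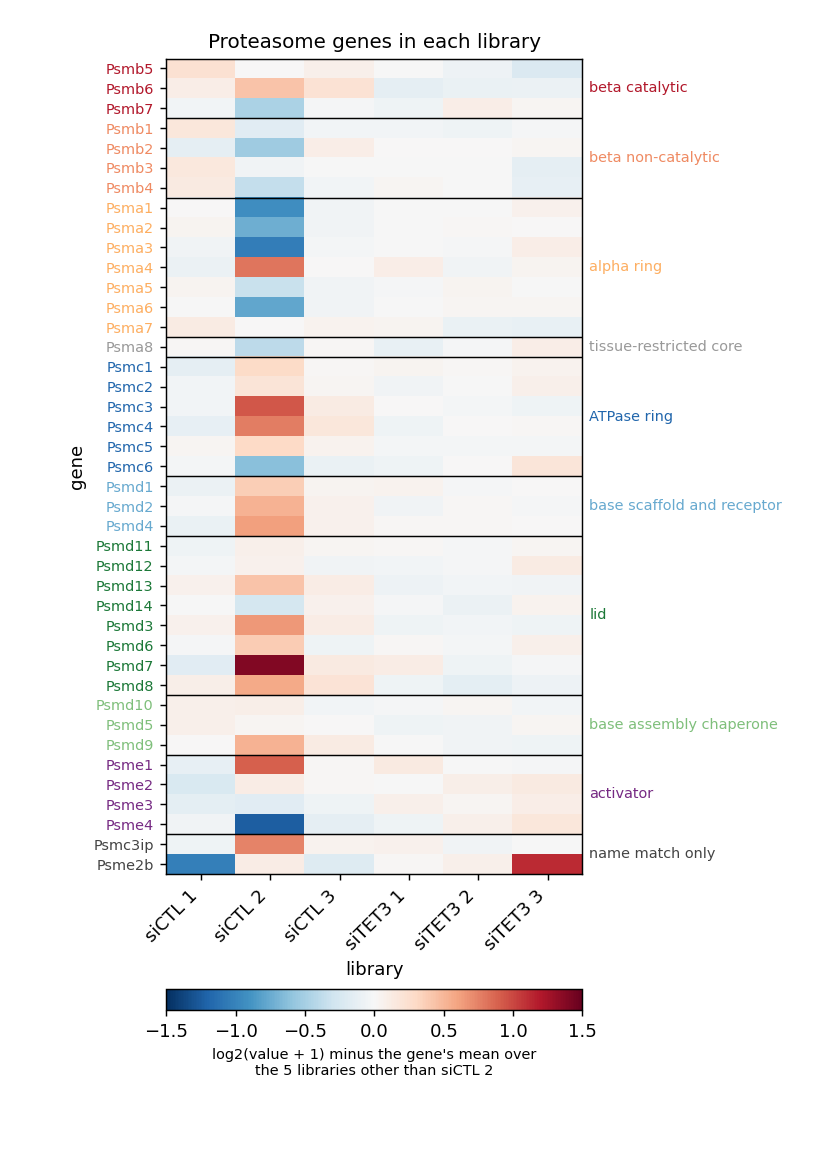
Each row is 1 of the 41 tested genes, grouped and coloured by role, and each column a library. Colour is the log2(value + 1) minus the gene's mean over the 5 libraries other than siCTL replicate 2. That library's column holds most of the strong colour, blue in most core particle rows and red in most regulatory particle rows, with Psmd7 the deepest red at 1.40 above the other siCTL libraries.

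The widest differences among these genes lay within the control group. In siCTL replicate 2, 20 of the 41 genes had their highest value of the 6 libraries and 14 their lowest, 48.8% and 34.1%, while over all tested genes these shares were 39.2% and 39.0%. The median size of its deviation from the mean of the other siCTL libraries was 0.42 on the log2 scale for the members and 0.38 for all genes. Between siCTL replicates 1 and 3 the median difference was 0.089 for the members and 0.14 for all genes. The libraries labelled siTET3 were close to each other, with a median SD of 0.0436 log2 units over the members, against 0.248 in siCTL. Over all genes these were 0.0739 and 0.247, so the contrast was not particular to the members.

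The deviation divided the complex along its main parts. Of the 14 core particle genes, 12 were lower in siCTL replicate 2 than the mean of siCTL replicates 1 and 3, the exceptions being Psma4 and Psmb6. Of the 17 regulatory particle genes, 15 were higher there, the exceptions being Psmc6 and Psmd14. The median deviation was -0.36 for the core and 0.39 for the regulatory particle on the log2 scale. Over all tested genes, 49.1% lay above zero.

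Summed over its genes, the core particle had 137347, 116199 and 133695 normalised reads in siCTL replicates 1, 2 and 3 and 131388, 131052 and 130183 in the libraries labelled siTET3. The regulatory particle had 151107, 211923 and 162218, against 151947, 149805 and 154170. The ratio of core to regulatory sums was 0.548 in siCTL replicate 2 and between 0.824 and 0.909 in the other libraries. It overlapped between the groups (exact two-sided permutation p = 0.6, with 0.1 the smallest p for 3 against 3 libraries). The balance of the parts differed between 1 control library and the rest, and not detectably between the groups.

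**Figure D2:**
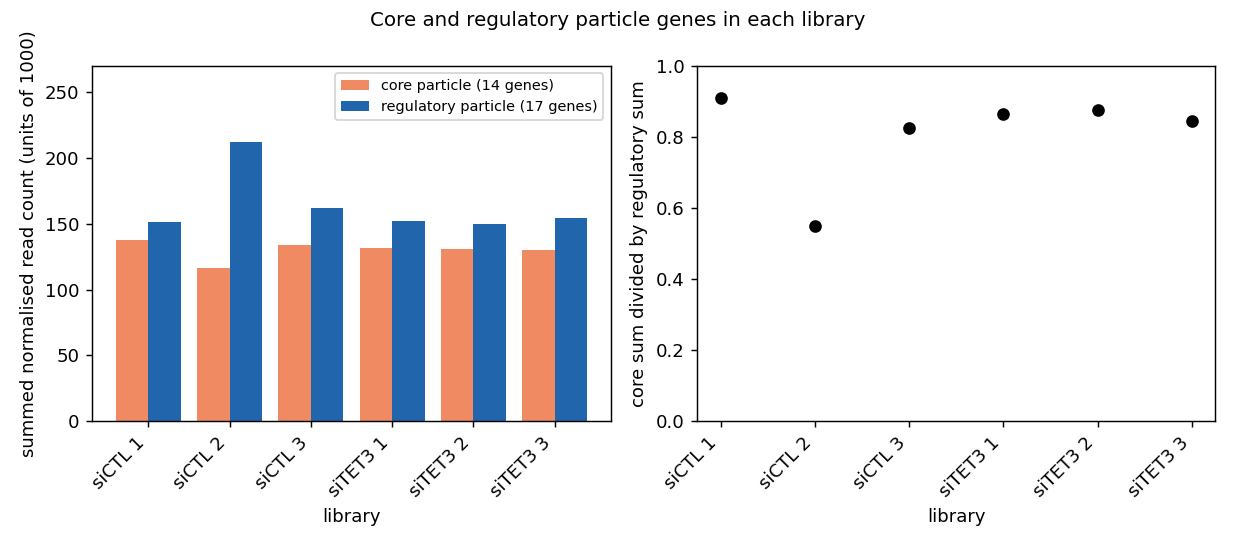
Left, summed normalised read counts, in units of 1000, of the 14 core particle genes and the 17 regulatory particle genes in each library. Right, the ratio of the sums, which is 0.548 in siCTL replicate 2 and at least 0.824 in each of the other libraries.

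The deviation moved with the base content of the transcripts. Across the 41 members its Pearson correlation with GC content was 0.55, and with the share of A and G on the sense strand 0.43. Across 11580 tested genes these were 0.34 and 0.18. The points are genes of the same 3 libraries, not independent replicates, and the values are descriptions. The core and regulatory particle genes had median GC contents of 48.9% and 49.7%, and median A and G shares of 51.3% and 54.2%. The part of base content in the deviation was not tested.

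The coding stretches richest in A and G are shown for the 2 members with the highest and the 2 with the lowest deviation, 50 bases each, 5′ to 3′ on the sense strand from GENCODE M21 transcripts, with A and G in capitals.
Psmd7 (chromosome 8, coding bases 856 to 905): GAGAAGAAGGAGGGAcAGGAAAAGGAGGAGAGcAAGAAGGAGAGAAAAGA
Psme1 (chromosome 14, coding bases 208 to 257): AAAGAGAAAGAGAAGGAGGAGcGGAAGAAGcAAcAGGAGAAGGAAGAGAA
Psma3 (chromosome 12, coding bases 694 to 743): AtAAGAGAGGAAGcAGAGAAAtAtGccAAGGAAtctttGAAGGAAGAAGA
Psme4 (chromosome 11, coding bases 1674 to 1723): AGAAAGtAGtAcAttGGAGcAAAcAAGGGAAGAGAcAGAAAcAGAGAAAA
The stretch of Psmd7 is 96.0% A and G, and that of Psme1 is 94.0%. Their deviations in siCTL replicate 2 were 1.40 and 0.96 on the log2 scale. The stretches of Psma3 and Psme4, at 78.0% and 82.0%, went with deviations of -0.99 and -1.15, the lowest of the members. A richer stretch did not always go with a higher value. Psmd1, as rich as Psmd7 at 96.0%, deviated by 0.39, Psma7, at 90.0%, by -0.079 and Psma8, at 86.0%, by -0.40, while Psma1, at 66.0%, deviated by -0.90. Each stretch is the richest of a coding sequence, and these ran from 603 bases (Psmb2) to 5529 bases (Psme4). Stretches of genes outside the list were not set beside them, and the link with the deviation was not tested.

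**Figure D3:**
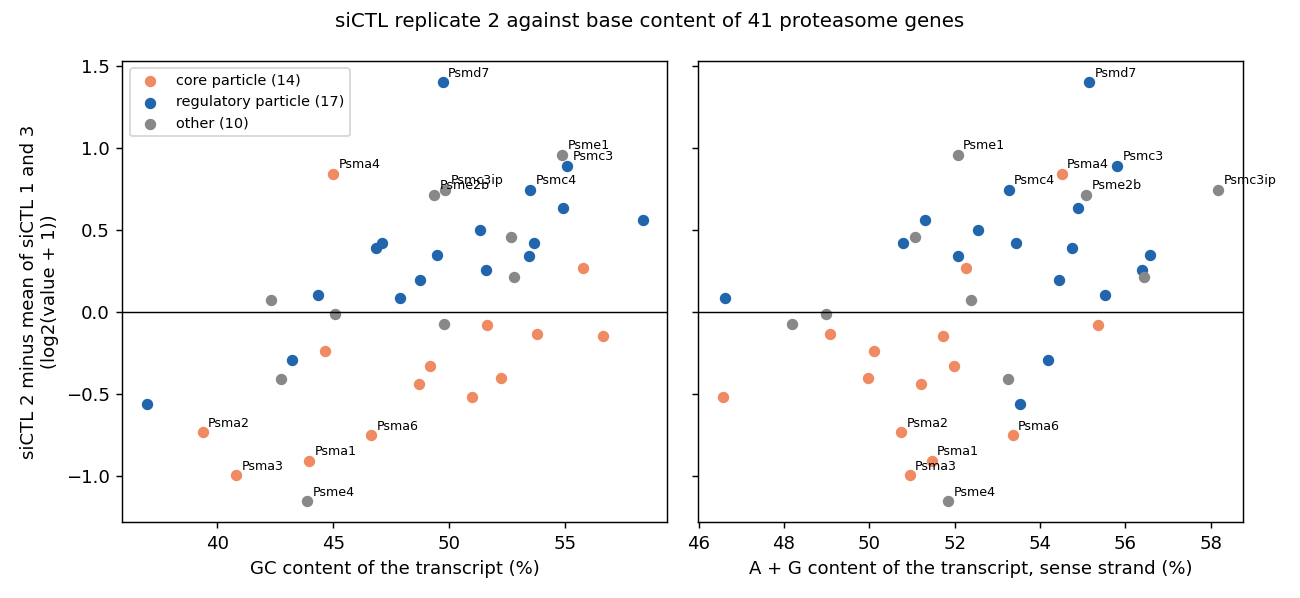
The log2(value + 1) of siCTL replicate 2 minus the mean of siCTL replicates 1 and 3, for each of the 41 tested genes, against GC content (left) and A and G content (right) of its transcript. Core particle genes lie mostly below 0 and regulatory particle genes mostly above, and genes of higher GC content lie higher (Pearson correlation 0.55).

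Among the catalytic subunits, Psmb5 and Psmb6 were lower in the libraries labelled siTET3 without overlap, and Psmb7 was not. Psmb5 (ENSMUSG00000022193.6, chromosome 14, 54614119 to 54618022, minus strand, GRCm38) provides the chymotrypsin-like activity. Psmb5 had 5329, 4565 and 4793 normalised reads in siCTL libraries 1 to 3 and 4516.5, 4305 and 3916 in those labelled siTET3. The siCTL values all lay above the highest siTET3 value, 4516.5, by a small margin. The means were 4896 ± 392 and 4246 ± 304 (SD, n = 3), a log2 change of -0.20 (95% interval -0.45 to 0.042, limma adjusted p = 0.383). The log2 change was -0.25 without siCTL replicate 2 (limma adjusted p = 0.136) and -0.035 with the GC trend removed. Psmb5 shares 57.1% of its 50-base windows with other annotated genes, pseudogenes included, so its count may depend on how shared reads were assigned.

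Psmb6 (ENSMUSG00000018286.6, chromosome 11, 70525367 to 70527858, plus strand) provides the caspase-like activity. Psmb6 had 16083, 20150.5 and 17396 normalised reads in siCTL libraries 1 to 3 and 13629, 14033 and 14115 in those labelled siTET3. The libraries labelled siTET3 lay close together and below every siCTL library, of which replicate 2 was the highest. The means were 17876.5 ± 2076 and 13926 ± 260.2 (SD, n = 3), a fold of 0.782 and a log2 change of -0.35 (95% interval -0.62 to -0.092, limma adjusted p = 0.328). Without siCTL replicate 2 the log2 change was -0.26 (95% interval -0.40 to -0.13, limma adjusted p = 0.0668), and the adjusted p in the authors' deposited table was 0.0729. When the low-value filter was applied to the other 5 libraries, a choice made after seeing the data, limma called Psmb6 as the only member (adjusted p = 0.0498) among 4.88% of all genes.

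Psmb7 (ENSMUSG00000026750.6, chromosome 2, 38588036 to 38644087, minus strand) provides the trypsin-like activity. Psmb7 had 8204, 6114 and 8329 normalised reads in siCTL libraries 1 to 3 and 8086, 9071 and 8655 in those labelled siTET3. The groups overlapped, and siCTL replicate 2 was the lowest library. Psmb7 had a log2 change of 0.20 (95% interval -0.14 to 0.54, limma adjusted p = 0.449), and 0.056 without siCTL replicate 2 (limma adjusted p = 0.63). The 3 catalytic subunits thus did not share a sign.

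The inducible counterparts were present at lower levels. Per kilobase of transcript, Psmb6 had 22402 ± 2601 normalised reads in siCTL and Psmb9 had 601 ± 59.5 (SD, n = 3). Psmb7 had 6508 ± 1073 and Psmb10 1234 ± 276 normalised reads per kilobase (SD, n = 3). Psmb5 had 5446 ± 436 and Psmb8 2091 ± 198 (SD, n = 3). Each constitutive subunit therefore exceeded its counterpart, most widely in the Psmb6 pair. The log2 changes of Psmb8, Psmb9 and Psmb10 were 0.069, 0.037 and -0.10 (limma adjusted p = 0.673, 0.847 and 0.711), and without siCTL replicate 2 they were 0.15, 0.091 and 0.065 (limma adjusted p = 0.161, 0.625 and 0.709), with the sign of Psmb10 turned.

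As a share of its constitutive counterpart per kilobase, Psmb9 was 2.45% to 3.10% of Psmb6 in siCTL and 3.20% to 3.76% in the libraries labelled siTET3. These ranges did not overlap (exact two-sided permutation p = 0.1, the smallest this design allows). Psmb9 itself overlapped, at 722 to 874 normalised reads in siCTL and 765 to 867 in the libraries labelled siTET3. The ratio thus restates the lower Psmb6 values and is not a separate result. Psmb8 was 33.3% to 45.7% of Psmb5 and 43.4% to 50.8%, and Psmb10 was 14.0% to 29.1% of Psmb7 and 15.0% to 15.4%, and both pairs of ranges overlapped (exact permutation p = 0.3 and 0.5). The upper ends in siCTL, 45.7% and 29.1%, were both siCTL replicate 2, and the other siCTL libraries had 33.3% and 37.1% for Psmb8 and 14.0% and 16.5% for Psmb10, so that without it the ranges of Psmb8 did not overlap. Adjusted over these 3 ratios by Benjamini-Hochberg none can pass.

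**Figure D4:**
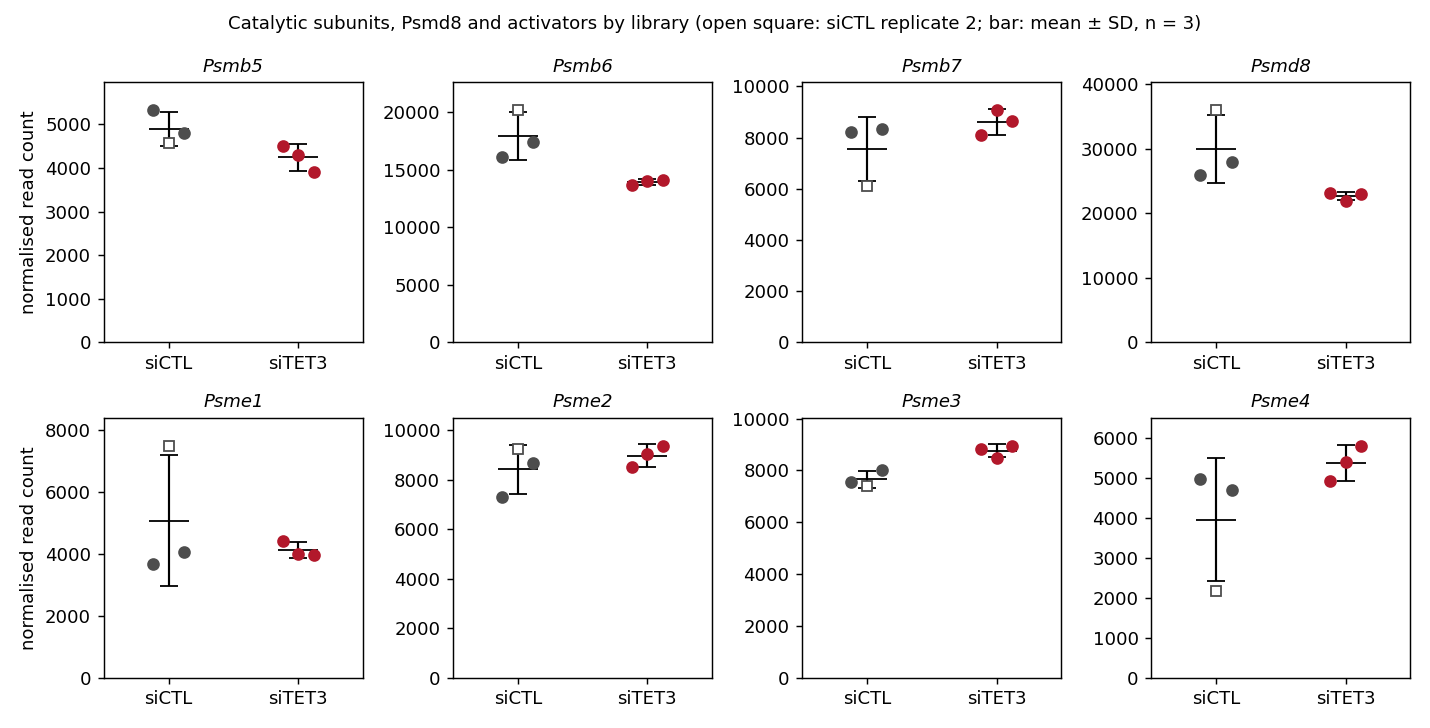
Normalised read count of each library for the catalytic subunits, Psmd8 and the 4 activators, on axes that start at 0. Bars show the mean ± SD (n = 3) and the open square is siCTL replicate 2, which is the highest library for Psmb6, Psmd8 and Psme1 and the lowest for Psmb7, Psme3 and Psme4.

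Without siCTL replicate 2 the log2 changes of all 4 activators were positive, between 0.095 and 0.17, and none passed the test. Psme3 (ENSMUSG00000078652.9, chromosome 11, 101316213 to 101323537, plus strand) encodes the ring activator of the nucleus. Psme3 had 7541, 7398 and 8016 normalised reads in siCTL libraries 1 to 3 and 8834, 8490.4 and 8959 in those labelled siTET3. Every library labelled siTET3 was above every siCTL library. The means were 7652 ± 324 and 8761 ± 243 (SD, n = 3), a log2 change of 0.20 (95% interval -0.0038 to 0.40, limma adjusted p = 0.374), and 0.17 without siCTL replicate 2 (limma adjusted p = 0.145). The adjusted p in the authors' deposited table was 0.17.

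Psme1 and Psme2 encode the ring activator that interferon induces. Psme1 had 3675, 7498 and 4048 normalised reads in siCTL libraries 1 to 3 and 4418, 4007 and 3952 in those labelled siTET3. Here siCTL replicate 2 was well above every other library, and without it the sign changed, from -0.22 with all libraries to 0.095 (limma adjusted p = 0.473). Psme2 had 7307, 9254 and 8686 normalised reads in siCTL libraries 1 to 3 and 8499, 9060.0 and 9382 in those labelled siTET3. The groups overlapped, with siCTL replicate 1 the lowest library, and Psme2 had a log2 change of 0.10 (95% interval -0.18 to 0.38, limma adjusted p = 0.612), and 0.17 without siCTL replicate 2. Psme2 shares 59.3% of its windows with other genes, and Psme2b, at 26.6 to 121 normalised reads, had the highest log2 change of the list, 0.77, with an interval from -0.24 to 1.78, and 1.01 without siCTL replicate 2. Psme4 encodes the large single-chain activator. Psme4 had 4964, 2173.5 and 4695 normalised reads in siCTL libraries 1 to 3 and 4916, 5402 and 5803 in those labelled siTET3. Its low value in siCTL replicate 2 was far below that in every other library. Psme4 had a log2 change of 0.53 (95% interval -0.22 to 1.29, limma adjusted p = 0.407), and 0.15 without siCTL replicate 2 (limma adjusted p = 0.297).

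In the alpha ring, whose subunits form the gate of the barrel, 5 of 7 genes had a positive log2 change, with a median of 0.25. Without siCTL replicate 2 the median was 0.039, over a range from -0.14 to 0.071. The 2 ends of the ring's range were Psma3 and Psma4. Psma3 had 7244, 3664 and 7337 normalised reads in siCTL libraries 1 to 3 and 7486, 7432 and 8075 in those labelled siTET3. The groups did not overlap, but siCTL replicate 2 was far below the other siCTL libraries, which lay just under those labelled siTET3. Psma3 had a log2 change of 0.40 (95% interval -0.25 to 1.06, limma adjusted p = 0.437), and 0.071 without siCTL replicate 2 (limma adjusted p = 0.496). Psma4 had 7895, 14593 and 8379 normalised reads in siCTL libraries 1 to 3 and 8939, 8069 and 8615 in those labelled siTET3. Here siCTL replicate 2 was the highest library and the rest overlapped. Psma4 had a log2 change of -0.21 (95% interval -0.78 to 0.36, limma adjusted p = 0.6), and with the opposite sign 0.069 without siCTL replicate 2 (limma adjusted p = 0.549). Of the others, Psma1, Psma2 and Psma6 had their lowest value in siCTL replicate 2, at 4996, 6436 and 6312 normalised reads, against at least 9146, 10345 and 10426 elsewhere. Psma5, which shares 54.5% of its windows with other genes, and Psma7 had log2 changes of 0.12 and -0.12, and 0.014 and -0.14 without siCTL replicate 2.

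The non-catalytic beta subunits, structural parts of the inner rings, had a median log2 change of 0.014, from -0.081 to 0.21, with 2 of 4 positive. The sign of the median turned without siCTL replicate 2, to -0.093, with 1 of 4 positive. Psmb2 had 6944, 5278 and 8174 normalised reads in siCTL libraries 1 to 3 and 7676, 7698 and 7771 in those labelled siTET3. siCTL replicate 2 was the lowest library and siCTL replicate 3 the highest, so the groups overlapped. Psmb2 had a log2 change of 0.21 (95% interval -0.19 to 0.60, limma adjusted p = 0.486), and 0.034 without siCTL replicate 2. Psmb3 had 8950.3, 7699.7 and 7973 normalised reads in siCTL libraries 1 to 3 and 7984, 7989 and 7281 in those labelled siTET3. The groups overlapped here too, and Psmb3 had a log2 change of -0.081 (95% interval -0.32 to 0.16, limma adjusted p = 0.628), and -0.13 without siCTL replicate 2. Psmb3 shares 55.8% of its windows with other genes, and its sign turned with the GC trend removed (0.012). Psmb1 and Psmb4 had log2 changes of -0.029 and 0.056, and -0.11 and -0.078 without siCTL replicate 2.

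The ATPases, which unfold the substrate, had 1 positive log2 change among 6 and a median of -0.10, or -0.014 without siCTL replicate 2. Psmc3 had 6579, 12929.6 and 7382 normalised reads in siCTL libraries 1 to 3 and 6818, 6631 and 6462 in those labelled siTET3. siCTL replicate 2 was the highest library and siCTL replicate 1 lay among those labelled siTET3. Psmc3 had a log2 change of -0.37 (95% interval -0.97 to 0.23, limma adjusted p = 0.437), and -0.071 without siCTL replicate 2 (limma adjusted p = 0.551). Psmc6 had 5792, 3835 and 5532 normalised reads in siCTL libraries 1 to 3 and 5671, 5946 and 6704 in those labelled siTET3. This gene, with the lowest GC content of the members at 37.0%, was lowest in siCTL replicate 2. Psmc6 had a log2 change of 0.29 (95% interval -0.13 to 0.71, limma adjusted p = 0.409), 0.11 without siCTL replicate 2, and its sign turned to -0.28 with the GC trend removed. Psmc5 was lower in every library labelled siTET3, at 5535 to 5548 against 5758 to 6933 normalised reads, with a log2 change of -0.15, and -0.067 without siCTL replicate 2. Psmc1, Psmc2 and Psmc4 had log2 changes of -0.015, -0.055 and -0.29. These were 0.10, 0.011 and -0.040 without siCTL replicate 2, so that Psmc1 and Psmc2 turned sign.

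In the base, Psmd1 and Psmd2 are the large scaffold subunits and Psmd4 is a ubiquitin receptor. All 3 had negative log2 changes with all libraries, of which those of Psmd1 and Psmd4 turned positive without siCTL replicate 2. Psmd1 had 12197, 16784 and 13389.5 normalised reads in siCTL libraries 1 to 3 and 13499.6, 12832 and 13084 in those labelled siTET3. Psmd2 had 18344, 26733 and 19431.5 normalised reads in siCTL libraries 1 to 3 and 17949, 18794 and 18299 in those labelled siTET3. In both genes siCTL replicate 2 was the highest library and the other 5 overlapped. Psmd1 had a log2 change of -0.091 (95% interval -0.41 to 0.23, limma adjusted p = 0.686), and 0.040 without siCTL replicate 2 (limma adjusted p = 0.734). Psmd2 had a log2 change of -0.21 (95% interval -0.58 to 0.16, limma adjusted p = 0.464), and -0.042 without siCTL replicate 2 (limma adjusted p = 0.695). Psmd4 had a log2 change of -0.18, and 0.036 without siCTL replicate 2.

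The lid, which removes ubiquitin from the substrate, held the lowest 2 estimates with all libraries. Psmd7 had 6521, 19146 and 8078 normalised reads in siCTL libraries 1 to 3 and 7916, 7007 and 7247 in those labelled siTET3. Psmd7 (ENSMUSG00000039067.5, chromosome 8, 107580381 to 107588464, minus strand), the non-catalytic partner of the deubiquitinase, was far higher in siCTL replicate 2 than in any other library. Psmd7 had a log2 change of -0.44 (95% interval -1.36 to 0.48, limma adjusted p = 0.513), and 0.024 without siCTL replicate 2 (limma adjusted p = 0.908). Psmd14 had 10558, 8814 and 11041 normalised reads in siCTL libraries 1 to 3 and 10436, 9981 and 11014 in those labelled siTET3. Psmd14 encodes the deubiquitinase itself, and its groups overlapped, with siCTL replicate 2 the lowest library. Psmd14 had a log2 change of 0.053 (95% interval -0.22 to 0.33, limma adjusted p = 0.784), and -0.045 without siCTL replicate 2 (limma adjusted p = 0.698). The 2 partners thus deviated in opposite directions in siCTL replicate 2.

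Psmd8 (ENSMUSG00000030591.17, chromosome 7, 29174188 to 29180701, minus strand), a lid subunit chosen after its values were seen, did not overlap between the groups with or without that library. Psmd8 had 25883, 35959 and 27958 normalised reads in siCTL libraries 1 to 3 and 23152, 21885.5 and 22946 in those labelled siTET3. All libraries labelled siTET3 lay below all siCTL libraries. The means were 29933 ± 5320.5 and 22661 ± 679.6 (SD, n = 3), a log2 change of -0.39 (95% interval -0.72 to -0.052, limma adjusted p = 0.356), and -0.25 without siCTL replicate 2 (limma adjusted p = 0.0925). The adjusted p in the authors' deposited table was 0.163. Psmd3 and Psmd13, also named after their values were seen, were lower without overlap too, with log2 changes of -0.33 and -0.26, and -0.14 and -0.14 without siCTL replicate 2 (limma adjusted p = 0.162 and 0.164). With the GC trend removed they were -0.11 and -0.17, and -0.010 and -0.10 with siCTL replicate 2 also left out. Psmd3 had the highest GC content of the members, at 58.3%. Psmd6, Psmd11 and Psmd12 had log2 changes of -0.082, -0.0011 and 0.029, and 0.059, 0.028 and 0.064 without siCTL replicate 2.

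The chaperones of base assembly had small negative log2 changes, of which those of Psmd5 and Psmd10 turned to 0.018 and 0.035 with scaling to library size. Psmd9 had 1718, 2456 and 1860.2 normalised reads in siCTL libraries 1 to 3 and 1696, 1649 and 1633 in those labelled siTET3. The groups did not overlap, and siCTL replicate 2 was the highest library. Psmd9 had a log2 change of -0.26 (95% interval -0.61 to 0.086, limma adjusted p = 0.397), and -0.11 without siCTL replicate 2 (limma adjusted p = 0.356). Psmd10 had 2822, 2859 and 2609 normalised reads in siCTL libraries 1 to 3 and 2651, 2733 and 2621 in those labelled siTET3. Psmd10, also known as gankyrin, overlapped between the groups and had a log2 change of -0.049 (95% interval -0.25 to 0.15, limma adjusted p = 0.722), and -0.024 without siCTL replicate 2. Psmd5 had a log2 change of -0.066, and -0.069 without siCTL replicate 2. Psma8 and Psmc3ip had log2 changes of 0.11 and -0.24, and both turned sign without siCTL replicate 2, to -0.028 and 0.0094.

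Leaving out siCTL replicate 2 narrowed the estimates and changed the sign of 13 members. The median width of the 95% interval went from 0.67 to 0.30 on the log2 scale, and 40 of 41 intervals then lay within a 1.5-fold change in either direction, against 22 with all libraries. The exception was Psme2b. That library was left out because its values stood apart, so narrower intervals follow in part from the choice, and fewer siCTL libraries remain. The members' median became 0.012, with 23 positive, beside 0.00826 over all genes. Limma still called 0 members, with 2.76% of all genes called. At an unadjusted p under 0.05 it had 5 lower (Psmb5, Psmb6, Psmd3, Psmd8 and Psmd13), with 11.1% of all genes lower at that level. It had 2 higher (Psme2b and Psme3), with 11.5% of all genes higher. With the GC trend also removed, the members' median was -0.017, with 12 positive and 29 negative. With that trend removed and all libraries kept, it was -0.11, also with 12 positive and 29 negative. With the trend removed and siCTL replicate 2 left out, Psmb5, Psmd3 and Psmd13 were no longer under that level (limma unadjusted p = 0.0795, 0.843 and 0.0667). Psma2, Psmb1, Psmd5, Psmd10 and Psmd14, all lower, and Psme1 and Psme2, both higher, then came under it.

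**Figure D5:**
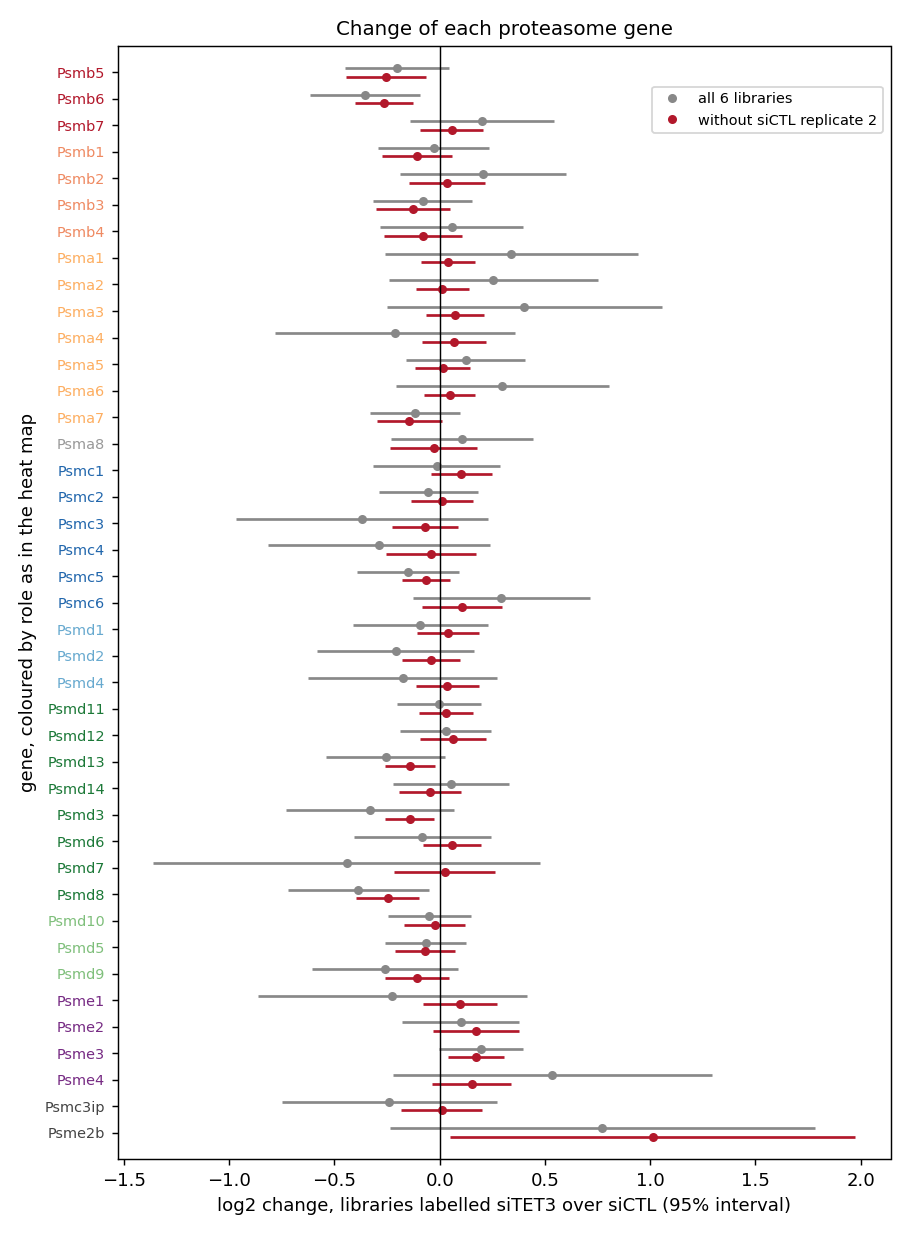
Log2 change of each of the 41 tested genes with its 95% limma interval, with all 6 libraries (grey) and without siCTL replicate 2 (red). The red intervals are narrower, and those of Psmb5, Psmb6, Psmd3, Psmd8 and Psmd13 lie below 0 and those of Psme3 and Psme2b above 0 before adjustment for multiple testing.

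Other genes of the pathway were read from lists chosen with earlier results of these data known, and limma called none of them higher or lower, with or without siCTL replicate 2. Of 16 tested assembly factors and proteasome-bound proteins, 11 had a positive log2 change, with a median of 0.17 (0.072 without siCTL replicate 2). Adrm1, a ubiquitin receptor of the base, was lower in every library labelled siTET3, with a log2 change of -0.37 (limma adjusted p = 0.357). Uchl5, the deubiquitinase that binds it, was higher in every one, at 0.29 (limma adjusted p = 0.368), as were Ube3c, a proteasome-bound ubiquitin ligase, at 0.43 (limma adjusted p = 0.374), and Akirin2, which carries proteasomes into the nucleus, at 0.66 (limma adjusted p = 0.379). Without siCTL replicate 2, which had the lowest value of the last 3 genes, the log2 changes were -0.26 for Adrm1, 0.21 for Uchl5, 0.23 for Ube3c and 0.28 for Akirin2. Sem1, a small lid subunit outside the naming rule and named here after its values were seen, had 8412, 35249.8 and 9543 normalised reads in siCTL libraries 1 to 3 and 7568, 7469.5 and 8018 in those labelled siTET3. Its value in siCTL replicate 2 was far above every other library, as was that of Psmg1, an assembly chaperone, at 5667 against 1599.5 to 1832 normalised reads elsewhere. The log2 change of Sem1 was -0.88 with all libraries and -0.22 without siCTL replicate 2, and that of Psmg1 was -0.56 and 0.020, with the sign turned.

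Of 7 genes that make or process NRF1 or its relative, 2 had a positive log2 change, with a median of -0.066 (-0.039 without siCTL replicate 2). Nfe2l1 had 16069.5, 19545 and 16819.6 normalised reads in siCTL libraries 1 to 3 and 14544, 14364 and 13658 in those labelled siTET3. All libraries labelled siTET3 lay below all siCTL libraries for this gene, which encodes NRF1, with a log2 change of -0.30 (limma adjusted p = 0.35) and -0.21 without siCTL replicate 2 (limma adjusted p = 0.102). Nfe2l2, which encodes NRF2, lay the other way without overlap, at 0.21 (limma adjusted p = 0.373), and 0.22 without siCTL replicate 2. Ngly1, the glycanase that acts on NRF1, and Ddi2, the protease that cuts NRF1, had log2 changes of -0.23 (limma adjusted p = 0.374) and 0.13 (limma adjusted p = 0.415), and -0.26 and 0.10 without siCTL replicate 2.

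Of 13 genes that supply ubiquitin or carry it to the proteasome, 6 had a positive log2 change, with a median of -0.067 (-0.021 without siCTL replicate 2). Uba6, which encodes a ubiquitin-activating enzyme, was at 809 normalised reads in siCTL replicate 2 and at 2250.0 to 3266 elsewhere, with a log2 change of 0.84 (limma adjusted p = 0.392), and 0.29 without siCTL replicate 2. Ubb, a polyubiquitin gene, had a log2 change of 0.28 (limma adjusted p = 0.397), and 0.14 without siCTL replicate 2, and its groups overlapped.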

How the data were processed

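RNA from RAW 264.7 cells was sequenced in 6 libraries made with a stranded mRNA kit. The submitters' processing notes name the build GRCm38 (mm10). Which aligner and counter were used is not given in the sources used here. The deposited signal values are gene counts that the authors divided by 1 size factor per library, since 100% of them were whole multiples of 1 read within a tolerance of 0.001 reads, which gave back reads for the count tests. The authors' deposited log2 fold changes (siCTL over siTET3, turned here) and the deposited p-values come from the same table. Counting is not stated to use strand, so reads of genes that overlap on opposite strands may be mixed.

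Groups were compared with limma 3.58.1 (R 4.3.3), with a variance trend and no covariate, on log2(value + 1) for 11591 genes with a mean of at least 10 units, with Benjamini-Hochberg adjustment over all of them and a threshold of 0.05. Its recovery of set changes was tested on simulated counts. No simulated library stood apart there as siCTL replicate 2 does here, so that test says little about these data. The planned edgeR test for raw counts was not the main one because the values are normalised. Fold changes on this scale understate those of low genes. Alternatives were edgeR 4.0.16 and DESeq2 1.42.0 on recovered reads, other pseudocounts, filters and scalings, a GC trend removed by loess per library, and each library left out. Depth was 29587171 to 61709131 reads, and 3 reads are worth 1.90 to 3.82 units. No replicate pair agreed within sampling noise. Coordinates, transcript lengths and base content come from GENCODE M21, and promoters from RefSeq on GRCm38.p6.

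Members and lists were chosen with earlier results of these data known. Values by library are given for the catalytic subunits, the activators, any member past the threshold, and the members with the highest and lowest log2 change of each role, with up to 4 genes in order of p from each other list, of which some are not reported here. The other sheets of the workbook were not used.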

Additional observations from a re-analysis of the deposited data

How the results depend on the processing

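No member was called under any alternative except Psmb6, and only without siCTL replicate 2 with the filter on the other 5 libraries (1 member, adjusted p = 0.0498 by limma). Limma called 41 genes over all, 57 with the GC trend removed, and 344 were called by DESeq2 on recovered reads. With libraries left out the count ran from 2 to 320, and it was 400 without siCTL replicate 2 with the GC trend removed and 562 with the filter on the other 5. Each of these moves is by over 1.5 times except that of the GC trend, so how many genes pass depends on single libraries. With the replicate number as a block the count was 1, and 6 with the GC trend also removed. Same-numbered libraries deviated from their group means with correlations of 0.032, -0.062 and -0.096. The siCTL mean holds the deviant siCTL replicate 2, so these values cannot show whether such libraries share more than a number.

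The members' median log2 change was -0.055 and moved by more than its SD between libraries (0.0393) with the GC trend removed (-0.11, with the replicate block -0.11), with library size scaling (0.030, where the median of all genes was 0.080) and without siCTL replicate 2 (0.012 with either filter). With 1 library left out it ran from -0.083 to 0.012. Of 399 log2 changes of 21 named genes over 19 alternatives, 27 changed sign, in 10 genes, none of them past the threshold. Without siCTL replicate 2, with either filter, these were Psme1 (0.095), Psma4 (0.069), Psmd1 (0.040), Psmd7 (0.024) and Psmd14 (-0.045). With the GC trend removed, with or without the block, they were Psmb3 (0.012), Psmc6 (-0.28), Psmd14 (-0.19) and Tet3 (0.21). With both, they were Psma3 (-0.077), Psmc6 (-0.11), Psmd14 (-0.15), Psmd7 (0.0094), Psme1 (0.16) and Tet3 (0.069). With library size scaling, they were Psmb3 (0.0035), Psmd10 (0.035) and Tet3 (0.029). With 1 library left out, the ranges of the genes that changed sign were -0.37 to 0.069 (Psma4), -0.19 to 0.040 (Psmd1), -0.045 to 0.12 (Psmd14), -0.75 to 0.024 (Psmd7) and -0.42 to 0.095 (Psme1). The cause of these moves was not tested.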
